A study of Mus musculus with 4 samples.

Results

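The cells described here were the nuclei that the authors labelled Cytotoxic gdT, a cluster of gamma-delta T cells with a cytotoxic program. They were taken by that label alone, and their open chromatin was read from the fragments carrying the same barcodes. The label held 1118 of the 15621 labelled nuclei, 523 of 7155 in the cecum library and 595 of 8466 in the tumor library. This was 7.31% (95% Clopper-Pearson interval 6.72 to 7.94) of the cecum nuclei and 7.03% (6.49 to 7.59) of the tumor nuclei, and these intervals overlapped. T cells were sorted from AKP tumors and from the adjacent tumor-free cecum of mice, 4 weeks after AKP organoids, which are mouse colorectal cancer organoids with Apc-/- and Trp53-/- among their alleles, were placed in the cecal wall. Both groups therefore came from tumor-bearing hosts. Host genotype, age and the number of animals pooled are not given in the sources used here for these libraries. There was 1 library per tissue, so no difference below has a replicate check or a test, and tissue cannot be told apart from library.

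Gamma-delta T cells carry a T cell receptor built from a gamma and a delta chain in place of the alpha and beta chains. In the gut many of them live between the epithelial cells as intraepithelial lymphocytes, where they are known for granzymes, for the CD8 alpha homodimer and for natural killer type receptors. Another gamma-delta lineage makes IL-17. The labels compared with Cytotoxic gdT were therefore Rorgt gdT (438 cecum and 273 tumor nuclei), CD8aa (407 and 473), which are CD8 alpha homodimer cells, and Cytotoxic CD8 (504 and 467), which are effector CD8 alpha-beta T cells.

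The assay was the ATAC side of a 10x multiome, in which a transposase cuts open DNA and each fragment is tagged with the barcode of its nucleus. The labels came from the RNA of the same nuclei, so accessibility is a second readout of the same nuclei and not of other samples. Paired values are given for the cecum first and the tumor second. Levels are fragments per 1000000 fragments of a label (FPM), counted over a gene with 5 kb on each side unless stated, and a fragment counted once if either end lay in the window. The middle Cytotoxic gdT nucleus by depth held 4261 fragments in the cecum library and 5612 in the tumor library, and the label summed to 3008350 and 4192345. The medians of the other 16 labels spanned 3516 to 8588 (cecum) and 3899 to 9643 (tumor). No Cytotoxic gdT barcode was labelled Cytotoxic gdT in both libraries, while 7 of its cecum barcodes and 5 of its tumor barcodes carried some label in the other library, among 84 shared labelled barcodes. Ratios are log2 of Cytotoxic gdT over the compared label, with exact 95% intervals for counting error only.

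The promoters of both granzyme genes that mark the label are shown because accessibility at them did not separate the labels in the same way. The sequences are from RefSeq on GRCm38.p6, run from 250 bases before to 50 bases after the start, and are given 5′ to 3′ on the gene's strand. The Gzma promoter is chr13:113100932-113101231 and the Gzmb promoter chr14:56262285-56262584, both on the minus strand. Capitals mark matches to TGTGGTT, a RUNX core, on either strand, and to TGANTCA, an AP-1 site.
Gzma: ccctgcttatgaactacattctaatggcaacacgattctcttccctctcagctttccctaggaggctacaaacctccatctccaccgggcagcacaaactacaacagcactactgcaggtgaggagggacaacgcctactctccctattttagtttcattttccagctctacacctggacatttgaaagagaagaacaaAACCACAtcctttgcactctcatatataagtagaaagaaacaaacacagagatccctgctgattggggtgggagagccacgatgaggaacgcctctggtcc
Gzmb: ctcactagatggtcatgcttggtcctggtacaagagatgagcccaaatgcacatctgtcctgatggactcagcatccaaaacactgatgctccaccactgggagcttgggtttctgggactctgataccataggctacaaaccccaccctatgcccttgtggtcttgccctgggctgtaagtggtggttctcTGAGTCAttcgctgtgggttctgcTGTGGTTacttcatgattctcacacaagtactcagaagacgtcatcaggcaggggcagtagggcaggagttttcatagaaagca
The RUNX match of Gzma, read on the opposite strand, began at -51 from the start, and those of Gzmb began at -34 for RUNX and -58 for AP-1. The same letters were in 5.27% (RUNX) and 7.81% (AP-1) of 32851 mouse promoters of this length. Searches for TCACACC (T-box) and CAGGAAGT (ETS) matched neither promoter, and these letters were in 3.98% and 3.33% of all promoters. Of the 17 cytotoxic effector genes with a promoter in the table, 6 held the RUNX letters, 5 the ETS letters, 4 the T-box letters and 1 the AP-1 letters. For 13 genes of the type 17 program the counts were 1, 1, 0 and 1. A match is a description of letters and not of binding.

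All of the 3 genes used to mark the label had their highest level over the labels in Cytotoxic gdT, in both libraries. Trdc, the constant region of the delta chain (chr14:54142851-54146108), was at 77.8 FPM in the cecum and 68.0 in the tumor. The next label was Rorgt gdT, with 48.6 and 40.5 FPM, and Cytotoxic CD8 had 3.54 and 6.66. The 2 gamma-delta labels thus stood above all others at Trdc, since the next highest was Innate-like T#2 with 24.5 FPM in the cecum and Innate-like T#1 with 18.7 in the tumor. Gzma, which encodes the granule protease granzyme A (chr13:113093824-113100981), was at 106 and 110 FPM. CD8aa followed with 90.5 and 94.2, and the log2 ratio to it was 0.22 in either library, with intervals of -0.04 to 0.49 (cecum) and 0.01 to 0.43 (tumor), so that only the tumor interval left out 0. Rorgt gdT had 3.70 and 9.41 FPM at Gzma, near the bottom of the labels, with only Th2 lower in the cecum and only IL10+ Treg and Th17 lower in the tumor. Gzmb, which encodes granzyme B, was at 62.5 and 62.0 FPM against 52.4 and 52.0 in CD8aa, with a ratio of 0.25 in each library and intervals that held 0. The data therefore did not go against the label. In these bulk sums over nuclei, fewer nuclei open at a gene and less opening per nucleus cannot be told apart.

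**Figure D1:**
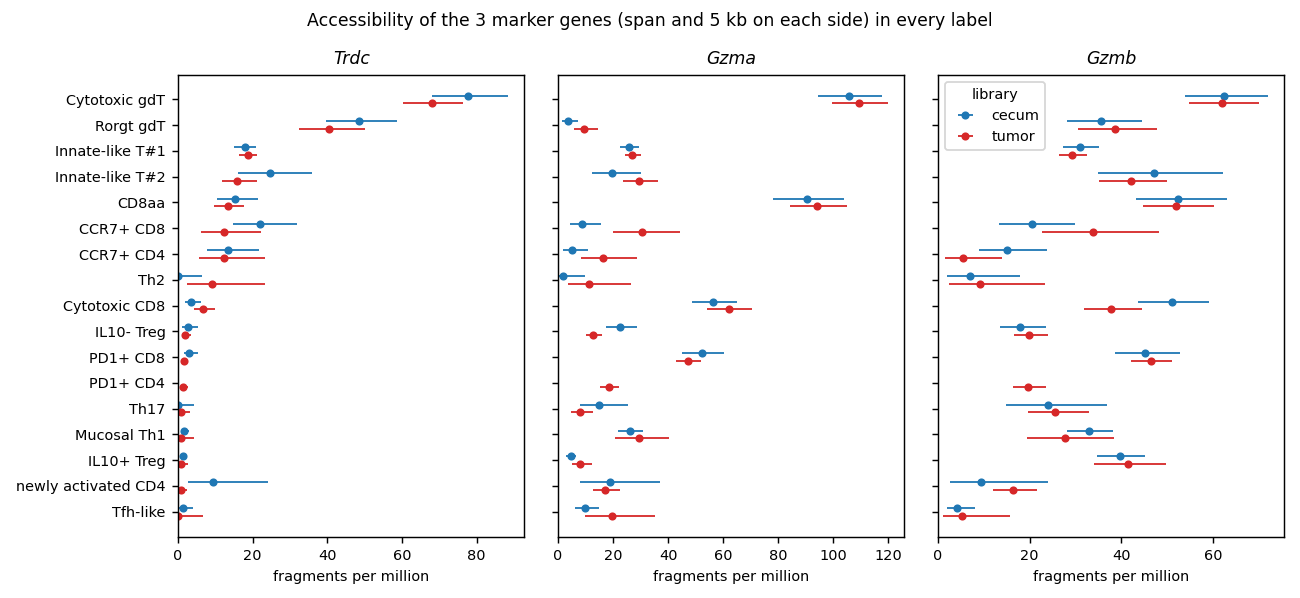
Levels of Trdc, Gzma and Gzmb over the labels, in FPM with exact 95% Poisson intervals for counting error, cecum and tumor as separate points. Cytotoxic gdT has the highest point in each panel, 77.8 and 68.0 FPM at Trdc, with CD8aa next at both granzyme genes and Rorgt gdT next at Trdc.

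Within the granzyme loci the labels separated at single elements. Windows of 500 bp, called elements here, were set on the highest point of the fragment ends in fixed search ranges. Their number was thus set by the ranges, and no peaks were called. The 3 at Gzma lay at the start and about 1150 and 3950 bp before it. At the start Cytotoxic gdT had 12.0 and 13.1 FPM and Rorgt gdT 1.39 and 2.35. At -1150 bp the levels were 22.9 and 21.7 FPM against 0.463 and 0.470 in Rorgt gdT, which is 1 fragment in each library. At -3950 bp they were 21.9 and 22.9 against 0.463 and 0.941. The elements upstream thus carried higher levels than the start, and all 3 were nearly closed in Rorgt gdT. Gzmb differed from this. At its start Cytotoxic gdT had 31.6 and 29.3 FPM and Rorgt gdT 27.3 and 27.8, with log2 ratios of 0.21 (-0.27 to 0.70) and 0.08 (-0.38 to 0.55). The Gzmb start was thus open in both gamma-delta labels, with intervals of the ratio that held 0. At -3950 bp from Gzmb the levels were 13.6 and 15.98 FPM against 2.78 and 3.29 in Rorgt gdT, ratios of 2.30 (1.05 to 3.82) and 2.28 (1.16 to 3.65). Against CD8aa, all of these windows had intervals that held 0 in both libraries. Against Cytotoxic CD8 the Gzma windows at -1150 and -3950 bp had intervals above 0 in both libraries, with ratios from 0.60 to 0.99. The positions were read from the profiles of these cells, so they describe the loci and are not a choice made without the data.

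**Figure D2:**
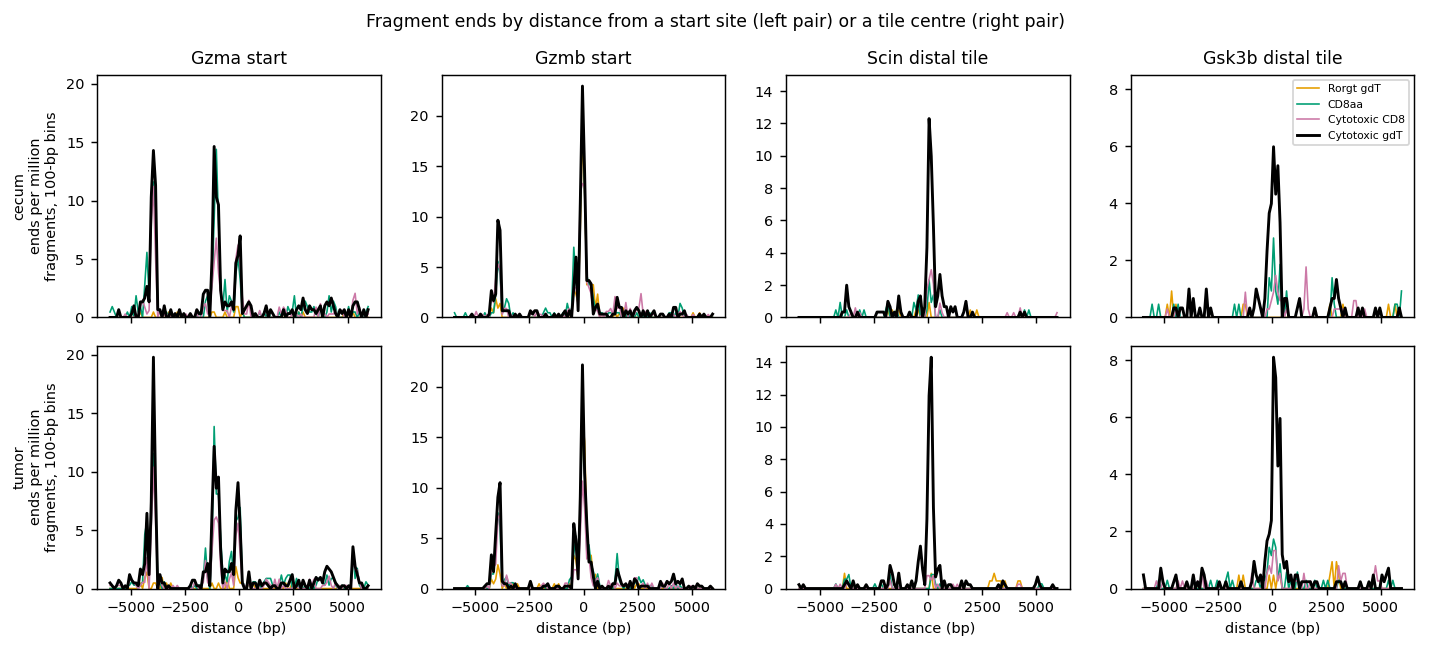
Fragment ends per 1000000 fragments of a label in 100-bp bins, by distance in bp from the Gzma and Gzmb starts (left pair) and from the centres of the distal tiles nearest Scin and in Gsk3b (right pair), cecum above and tumor below, 1 line per label. At the Gzmb start Cytotoxic gdT peaks at 22.9 and 22.2 and Rorgt gdT, drawn behind it, at 18.5 and 16.9, while upstream of Gzma and at both tiles the Rorgt gdT line stays near 0.

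The delta locus was read segment by segment, with 500 bp on each side, because the wider gene windows of Trdc and Trdv5 overlap. Delta segments lie inside the alpha locus and are deleted when the alpha chain rearranges, so fragments there read DNA copies as well as opening, and these cannot be told apart. Trdc itself had 29.9 FPM in the cecum and 18.4 in the tumor, against 16.2 and 9.88 in Rorgt gdT and 3.71 and 3.76 in CD8aa. Trdv5, a variable segment downstream of Trdc, had 7.65 and 6.92 FPM against 1.85 and 3.29 in Rorgt gdT. Trdj2, a joining segment, had 4.65 and 3.58 FPM and was highest in Cytotoxic gdT in both libraries. Trdv4, a variable segment known from IL-17 producing gamma-delta cells, went the other way with 4.32 and 5.25 FPM against 11.1 and 14.6 in Rorgt gdT. Both gamma-delta labels stood first and second at Trdv4, where CD8aa had 0 fragments in both libraries, which allows up to 3 fragments in each. The gamma locus is not deleted in this way. Trgc2, a gamma constant region, had 4.65 and 7.87 FPM with 500 bp on each side, rank 3 (cecum) and 1 (tumor) of the labels. With 5 kb on each side it was at 42.9 and 40.1 FPM, the highest of the labels, against 38.5 and 36.7 in CD8aa and 17.6 and 15.05 in Rorgt gdT. The Trac window, the alpha constant region, had 90.4 and 90.2 FPM, rank 11 of 16 labels in the cecum and of 17 in the tumor, so it was open in these gamma-delta cells as well.

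Rorgt gdT stood furthest from Cytotoxic gdT of the compared labels. Of 13617 protein-coding genes with at least 50 fragments over both labels in each library, 245 (1.8%) were higher at least 2-fold in both libraries and 403 (2.96%) were lower. These calls used a pseudocount of 1 FPM, as did medians over genes or tiles, the smallest ratios of tiles, values under other windows and the tumor over cecum ratios of other labels. Ratios of single genes printed with an interval are from the counts. Of 16 measured cytotoxic effector genes, 9 were past 2-fold higher and none lower, with a median log2 ratio of 1.41 in the cecum and 1.35 in the tumor against 0.08 and 0.10 over all genes. Gzma had ratios of 4.84 (3.84 to 6.06) and 3.54 (2.90 to 4.27), the highest of the list in the cecum, while Ccl3 was higher in the tumor with 3.65. Ccl3, a CC chemokine, was at 19.3 and 23.6 FPM against 0.925 and 1.88, and Ccl4, its neighbour with an overlapping window, at 75.1 and 83.3 against 12.0 and 9.41. Ccl5, another CC chemokine, was at 122 and 127 against 19.9 and 28.7, and Xcl1, which attracts cross-presenting dendritic cells, at 47.9 and 34.6 against 8.79 and 7.998. The remaining 4 were Prf1 (perforin, 47.2 and 57.7 FPM against 19.4 and 20.7), Nkg7, Gzmk and Ifng. Gzmb was not among them, at 62.5 and 62.0 against 35.6 and 38.6.

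The type 17 program showed the reverse. Of 13 measured genes none was higher and 11 were past 2-fold lower, with medians of -2.57 and -2.58. Il1r1, the receptor for IL-1, was at 7.98 FPM in the cecum and 9.78 in the tumor against 279 and 275. Il17a had 0.665 and 2.39 FPM against 39.3 and 72.5, with ratios of -5.89 (-8.96 to -3.99) and -4.93 (-6.01 to -4.01). The genes of both IL-17 cytokines were thus nearly closed, Il17f being at 3.66 and 2.39 against 26.8 and 32.9. Among the regulators, Sox13, a transcription factor of IL-17 producing gamma-delta cells, was at 12.96 and 9.30 against 108 and 129. Blk, a Src family kinase, was at 26.9 and 38.6 against 246 and 274. Also past 2-fold lower were Ccr6, Cd163l1, Il23r, Maf and Zbtb16.

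The genes of CD8 and of T cell signalling also separated both gamma-delta labels. Cd8a was at 68.1 and 62.7 FPM against 4.63 and 8.94, ratios of 3.88 (2.97 to 4.96) and 2.81 (2.14 to 3.57). Cd8b1, which encodes the beta chain, was at 30.6 and 26 against 9.25 and 6.12, and Themis, a T cell receptor signalling regulator, at 117 and 140 against 21.3 and 25.9. Cd28, the costimulatory receptor, went the other way with 10.97 and 12.88 FPM against 60.1 and 52.7. Of the 13 measured genes of this list 3 were thus past 2-fold higher and 1 lower. Of 13 natural killer receptor genes, 4 were past 2-fold higher, namely Klrd1 (50.5 and 54.9 FPM against 12.0 and 17.4), Klra5, Cd244a and Cd160. Klrc1, which encodes NKG2A, was past 2-fold lower, at 13.6 and 18.8 against 40.2 and 41.4. Of 18 intraepithelial and residency genes 3 were past 2-fold higher, Ccr9, Gpr55 and Gpr18, and none lower. Ccr9, the gut-homing chemokine receptor, was at 65.5 and 64.2 FPM against 23.1 and 23.5. Gpr55, a lipid receptor of intraepithelial lymphocytes, was at 254 and 275 against 77.7 and 51.3. Tbx21, the T-bet gene, and Il12rb2, a chain of the IL-12 receptor, were the 2 of 12 type 1 genes past 2-fold higher, Tbx21 at 141 and 116 against 57.4 and 55.5. Fcer1g and Plcg2 were the signalling adaptors past 2-fold higher, and Pdcd1 (64.5 and 79.9 against 191 and 241) was past 2-fold lower while Cd200 was higher.

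Ranked by the cecum over all genes, the 8 highest against Rorgt gdT were Gzma, Car2, Cd8a, Itgax, Msc, Ccl3, Scin and Gpx8, all past 2-fold also in the tumor. Car2, carbonic anhydrase 2, was at 69.1 FPM in the cecum and 74.9 in the tumor against 3.70 and 5.18. Itgax, the CD11c gene, was at 35.9 and 40.3 against 2.31 and 9.88, and Scin, which encodes the actin-severing protein scinderin, at 84.8 and 76.3 against 7.86 and 11.3. The 8 lowest were Pla2g2d, Kcnk1, Sh2d4a, Prss51, Stac, Prss52, Lrrn2 and Il1r1, all past 2-fold in the tumor too. Pla2g2d, a secreted phospholipase, had 0 and 2 fragments against 142 and 94 in Rorgt gdT. Against the floor of 3 fragments the cecum log2 ratio was -6.04 or lower, and the tumor ratio was -6.53 (-9.60 to -4.64). Kcnk1, a potassium channel, had 4 and 2 fragments against 228 and 210. Both genes were thus open in Rorgt gdT and almost without fragments in Cytotoxic gdT in each library.

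**Figure D3:**
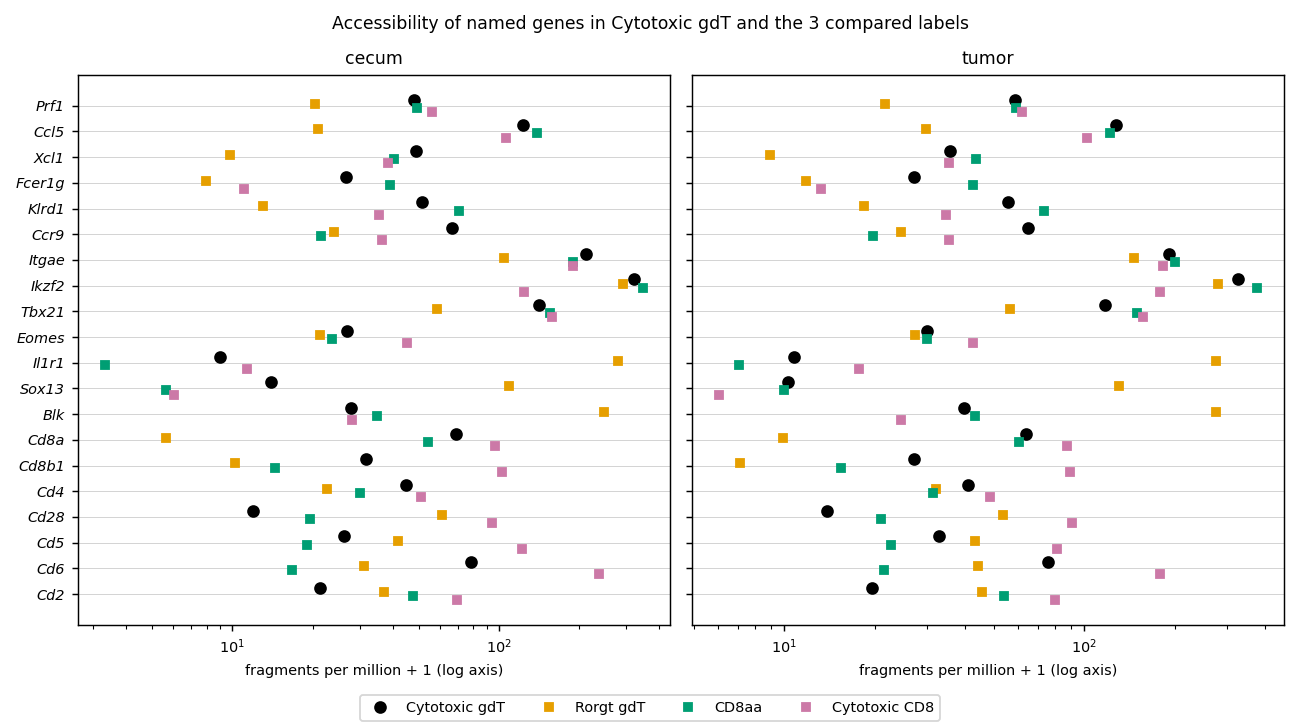
Levels of named genes in Cytotoxic gdT, Rorgt gdT, CD8aa and Cytotoxic CD8 as FPM plus 1 on a log axis, cecum left and tumor right. Rorgt gdT lies below the other labels at Cd8a and above them at Il1r1, Sox13 and Blk, and Cytotoxic gdT lies lowest at Cd28 with 10.97 and 12.88 FPM.

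CD8aa was the closest label. Of 13417 genes, 17 (0.127%) were at least 2-fold higher in both libraries and 19 (0.142%) lower. Correlating the log levels of 12361 genes in the cecum and 13147 in the tumor gave Pearson's r of 0.969 and 0.977 with CD8aa, 0.965 and 0.969 with Cytotoxic CD8 and 0.940 and 0.944 with Innate-like T#1. With Rorgt gdT it was 0.897 and 0.904, seventh and ninth in the order of labels. These are correlations across genes, which are not independent, and the labels differ in depth, so they are a description with no test.

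Against CD8aa the gamma-delta receptor list had the most members past 2-fold, although its medians were 0.09 and 0.10. Trdc, Trdv1 and Trdv5 were the 3 of 10 measured genes past 2-fold higher, and the windows of Trdc and Trdv5 overlap. Trdc was at 77.8 and 68.0 FPM against 15.3 and 13.3. Trdv1, a variable segment, was at 16.95 and 15.3 against 1.39 and 1.73. None of 16 cytotoxic effector genes was past 2-fold in either direction, with medians of -0.02 and 0.05, and none of 15 natural killer receptor genes was either. Of these 15, however, 11 were lower by any amount in both libraries, beside 33.7% of all genes tested, with medians of -0.46 and -0.40 against -0.02 over all genes in each library. Klre1 was at 40.9 and 44.1 FPM against 76.6 and 80.3, and Klrk1, which encodes NKG2D, at 28.6 and 25.8 against 43.2 and 39.0. Klrb1a was at 10.6 and 10.5 against 19.0 and 28.3. The Klr genes lie close together on chromosome 6, so their values are not independent. Among the adaptors, Fcer1g, the Fc receptor gamma chain, was at 25.6 and 26 FPM against 38.1 and 41.6, and Sh2d1b1, which encodes EAT-2, was the 1 gene past 2-fold lower at 6.98 and 7.16 against 16.2 and 19.9.

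Single genes of T cell costimulation and homing stood apart from CD8aa in opposite directions. Cd6, a receptor that restrains T cell activation, was at 77.5 and 74.7 FPM against 15.8 and 20.5, ratios of 2.30 (1.77 to 2.86) and 1.86 (1.49 to 2.26). Cd2, the adhesion receptor, was at 20.3 and 18.6 against 46.4 and 52.9. Ccr9 was at 65.5 and 64.2 FPM against 20.4 and 18.8, and Themis at 117 and 140 against 58.5 and 55.2, which fell just short of 2-fold with the pseudocount in the cecum. Havcr2, which encodes TIM-3, was at 93.4 and 97.1 against 48.7 and 45.1, also short of 2-fold in the cecum. Of the 8 genes highest against CD8aa in the cecum, Cd6, St8sia1, Zmat4, Otogl, Tshz3 and Scin were past 2-fold in the tumor, and Tle1 and Maf were not. St8sia1, the GD3 ganglioside synthase, was at 213 and 177 FPM against 57.6 and 68.5. Maf, a transcription factor, was at 24.3 against 6.497 FPM in the cecum but at 17.9 against 17.1 in the tumor. Of the 8 lowest, 7 were past 2-fold in the tumor, Loxhd1, Fbln2, Atp1b1, Il13, Apba2, Gas7 and Gpr35, and Tmem117 had the opposite sign there. Gas7, a cytoskeletal adaptor, was at 53.5 and 59.2 FPM against 174 and 211, and Il13, a type 2 cytokine, at 9.31 and 18.6 against 34.3 and 41.3.

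Against Cytotoxic CD8, 40 (0.286%) of 13999 genes were at least 2-fold higher in both libraries and 40 (0.286%) were lower. The list of coreceptors and costimulation lay on the low side as a whole, with 13 of 13 measured genes lower by any amount in both libraries, beside 30.3% of all genes tested, 5 of them past 2-fold, and medians of -0.52 and -0.91 against 0.01 and -0.00 over all genes. Cd28 was at 10.97 and 12.88 FPM against 93.0 and 90.0, ratios of -3.08 (-3.65 to -2.56) and -2.81 (-3.25 to -2.39). Cd2 was at 20.3 and 18.6 against 68.5 and 79.1, and Cd8b1 at 30.6 and 26 against 102 and 89.0. Cd5, which dampens receptor signalling, was at 25.3 and 31.7 against 121 and 80.4, and its neighbour Cd6 at 77.5 and 74.7 against 236 and 177. Cd28 and Cd2 were at their lowest of all labels with at least 50 nuclei in Cytotoxic gdT, in both libraries. CD8aa was nearest at Cd28, with 18.6 and 19.9 FPM. Cd8a, in contrast, was at 68.1 and 62.7 FPM against 95.3 and 86.6 and did not reach 2-fold. SAP, the product of Sh2d1a, is an adaptor of SLAM receptors, and Sh2d1a was past 2-fold lower with 14.96 and 7.63 FPM against 35.4 and 28.2.

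Zbtb16 and Kit were past 2-fold higher than in Cytotoxic CD8 and Ccr6 past 2-fold lower, among 11 measured genes of the type 17 list, whose medians were -0.01 and -0.27. Zbtb16, the PLZF gene, was at 219 and 208 FPM against 56.1 and 60.7, ratios of 1.97 (1.73 to 2.21) and 1.78 (1.56 to 1.99). Kit, the stem cell factor receptor, was at 72.8 and 58.7 against 9.74 and 26.1. Ccr6, a chemokine receptor, was at 5.65 and 3.58 against 12.7 and 18.6. Of 8 measured adaptors, Fcer1g and Plcg2 were past 2-fold higher and 1, Sh2d1a, lower, with medians of 0.04 and -0.02. Fcer1g was at 25.6 and 26 against 10.0 and 12.3. Plcg2, a phospholipase of immune receptor signalling, was at 196 and 220 against 94.7 and 108, but with windows of 1 kb around the gene ends its log2 ratio was -0.05 in the cecum. Ikzf2, the Helios gene, was at 319 and 326 FPM against 123 and 178, past 2-fold in the cecum but not in the tumor. None of 17 cytotoxic effector genes was past 2-fold in either direction. Within that list Gzma was the highest in ratio, 0.91 (0.64 to 1.17) and 0.82 (0.59 to 1.05), and Gzmm the lowest, at 17.3 and 15.03 FPM against 31.9 and 30.9. Eomes, a T-box factor of CD8 effector and memory cells, was at 25.9 and 28.9 FPM against 44.3 and 41.6, and Tbx21 at 141 and 116 against 157 and 156. Of 18 intraepithelial and residency genes none was past 2-fold, and Itgae, which encodes CD103, was at 211 and 190 FPM against 189 and 181.

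Ranked by the cecum, the 8 genes highest against Cytotoxic CD8 were Cyp2j9, Olfr1258, Clnk, Kit, S1pr3, Cyp2j6, Grb10 and Tshz3, and the 8 lowest Cd28, Tmie, Slamf1, Cd5, Gprin3, Galnt9, Izumo1r and Olfr156. All 16 were past 2-fold in the same direction in the tumor. Clnk, an adaptor related to SLP-76, was at 73.1 and 89.0 FPM against 9.74 and 19.2. Cyp2j9 and Cyp2j6, cytochrome P450 genes with overlapping windows, were at 25.3 and 32.2 and at 25.6 and 29.1 FPM against 1.48 and 1.33 and 3.84 and 4.26. S1pr3, a sphingosine 1-phosphate receptor, was at 52.2 and 56.3 against 8.26 and 17.8. On the low side, Slamf1, a SLAM family receptor, was at 12.6 FPM in each library against 68.5 and 77.2.

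**Figure D4:**
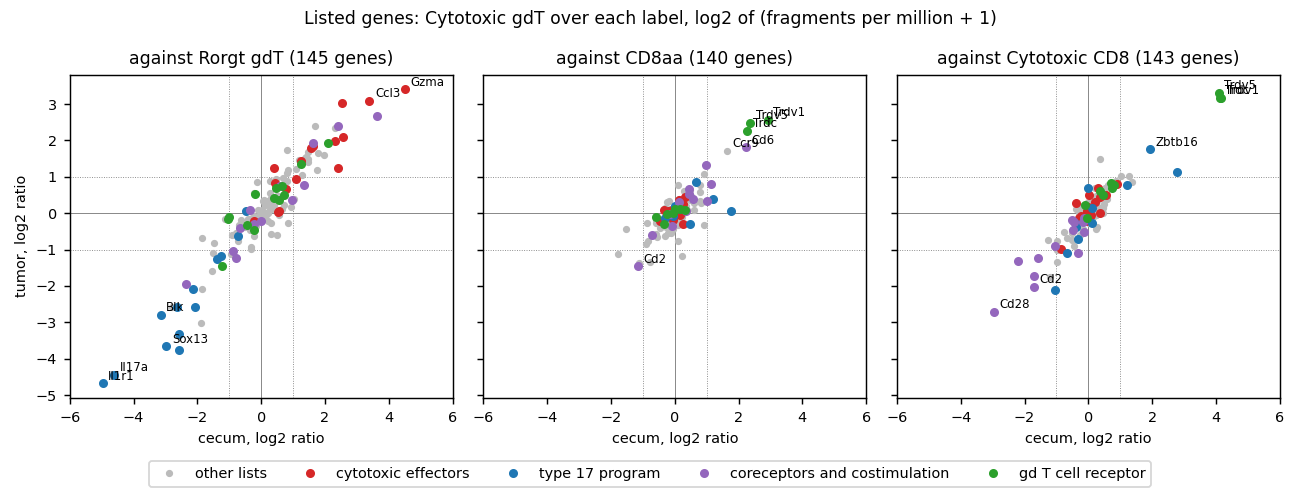
Each point is a listed gene, with its log2 ratio of Cytotoxic gdT over the label (FPM plus 1) in the cecum on the x axis and in the tumor on the y axis, 1 panel per compared label and colours for the cytotoxic effector, type 17, costimulation and gamma-delta receptor lists (other lists grey). Cytotoxic effectors lie to the upper right and type 17 genes to the lower left against Rorgt gdT, and costimulation genes lie to the lower left against Cytotoxic CD8.

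Other lists separated the labels less. Of 7 genes of the alpha-beta receptor and CD3 none was past 2-fold against any compared label, and Cd247, the CD3 zeta gene, was at 257 and 256 FPM against 149 and 150 in CD8aa. Of 9 genes of naive and circulating T cells none was past 2-fold against CD8aa or Cytotoxic CD8. Of 12 genes of inhibitory receptors and Tox factors, none was past 2-fold against CD8aa or Cytotoxic CD8 either. Pdcd1, the PD-1 gene, was at 64.5 and 79.9 FPM against 92.7 and 133 in Cytotoxic CD8. Cd4 was at 43.9 and 40.1 FPM, rank 12 of 16 labels in the cecum and 13 of 17 in the tumor, and Mucosal Th1 was highest with 110 and 99.6. Tyrobp, which encodes DAP12, was at 86.1 and 98.0 FPM against 114 and 113 in CD8aa and 93.9 and 98.0 in Cytotoxic CD8. Its level was thus not above that of any compared label beyond counting error. The Tyrobp window overlaps those of Hcst and Nfkbid, so the value is not of Tyrobp alone.

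Few genes separated Cytotoxic gdT from all 3 labels at once. Of 13253 genes tested against each label, 5 (0.0377%) were at least 2-fold higher against each by the cecum library and 6 (0.0453%) by the tumor library. The counts lower were 4 (0.0302%) and 6 (0.0453%). The 5 chosen in the cecum were Akap6, Gm40892, Cyp2j6, Abcd2 and Tex12. Gm40892, Cyp2j6 and Abcd2 were past 2-fold against each label in the tumor too, and all 5 kept their sign there. The fragment minimum for genes was applied in both libraries, so tumor counts had a part in which genes were tested. It also counted the fragments of Cytotoxic gdT, so a gene could pass it through the label in which it was high. Abcd2, for example, had 73 cecum and 91 tumor fragments in Cytotoxic gdT alone. The tumor is thus not an independent check of these genes. Abcd2, a peroxisomal fatty acid transporter (chr15:91145871-91192007), was at 24.3 and 21.7 FPM against at most 6.96 and 6.94 in the compared labels. Gm40892 (chr12:92883718-92894950) was at 31.9 and 37.7 FPM, above each of the other labels, the highest of which had 12.99 and 11.7. Abcd2 was at 18.0 FPM in CCR7+ CD8 in the tumor. Cyp2j6 was higher in Innate-like T#1, with 29.8 and 33.6 FPM against 25.6 and 29.1, and Tex12 was at 20.8 in Mucosal Th1 in the tumor against 10.3. Akap6, a scaffold of protein kinase A, was not particular to the label either, since Tfh-like had 138 FPM in the cecum and Innate-like T#1 141 in the tumor against 117 and 110. The 4 chosen as lower were Slc35f3, Rnf32, Fbln2 and Klrb1f. None of them was past 2-fold against each label in the tumor, where all 4 kept their sign. Against single labels some were, as Fbln2 with 12.6 FPM against 26.9 in CD8aa.

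Distal accessibility was read in tiles of 500 bp whose middle was over 2 kb from both ends of every protein-coding gene. Of 19151 tiles with at least 60 cecum fragments over the 4 labels, 23 (0.12%) were at least 2-fold higher than each compared label in the cecum, and 18 (0.094%) in the tumor. The choice used the cecum alone. The minimum also counted the fragments of Cytotoxic gdT, so a tile could pass it through the label in which it was high. The tile in Gsk3b, for example, had 43 cecum fragments in Cytotoxic gdT against 0 in Rorgt gdT, 9 in CD8aa and 9 in Cytotoxic CD8. The shares over all tiles given below are not matched for this. Of the 23, 4 (17.4%) were past 2-fold against each label in the tumor and 20 (87.0%) were higher than each there, against 23.1% of all tiles. The median tumor ratios of the chosen tiles were 1.33 to Rorgt gdT, 0.54 to CD8aa and 0.67 to Cytotoxic CD8, against 0.16, -0.01 and 0.03 over all tiles. The last tile inside the threshold had a smallest log2 ratio of 1.001 and the first outside 0.997. The 23 tiles lay in or nearest to 22 genes, and Zfp507 had 2 of them.

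The tiles past 2-fold in both libraries lay near Scin and inside Gsk3b, Ldlrad4 and Grb10. The Scin tile, chr12:40154001-40154500, lay between genes, 20.02 kb from the end of the Scin span. Cytotoxic gdT had 55 and 83 fragments there, or 18.3 and 19.8 FPM, and no other label was above 6.998 and 6.83. CD8aa had 2.32 and 0.578 FPM, Cytotoxic CD8 5.02 and 1.598, and Rorgt gdT 1 fragment in each library. It was the tile with the largest gap in the cecum, and its level was the highest of all labels in both libraries. The Scin gene itself was at 84.8 and 76.3 FPM against 23.7 and 15.03 in CD8aa. The Gsk3b tile, chr16:38178001-38178500, lay inside the gene of glycogen synthase kinase 3 beta, 67.8 kb from its nearest end. Its levels were 14.3 and 14.8 FPM against at most 4.18 and 3.47 in any other label. The Grb10 tile, chr11:11932501-11933000, lay inside the gene of an adaptor of growth factor receptors, only 2.25 kb from its nearest end. Its levels were 25.3 and 18.6 FPM against 11.6 and 8.09 in CD8aa. The Ldlrad4 tile had 37.6 and 39.8 FPM against 17.2 and 16.2 in CD8aa. The other tiles with the largest cecum gaps were nearest Rsph3b and Btg1 and inside Tnfaip8, Nsmce2, Acadl and Akap6, and had smallest tumor log2 ratios from 0.29 to 0.54. Those in Nsmce2 and Akap6 were not particular to the label. At Nsmce2, IL10- Treg had 21.99 FPM in the cecum and PD1+ CD4 22.6 in the tumor, against 18.6 and 15.5. At Akap6, Innate-like T#1 had 9.92 FPM in the tumor against 7.63. At the rest of these tiles no other label was higher in either library. With the deepest nuclei left out (over 3 times their library's median), 10 tiles were chosen in the cecum and 0 were past 2-fold in the tumor. The Scin tile then had 54 fragments over the 4 labels, under the minimum, at 20.01 and 21.4 FPM in Cytotoxic gdT. The Gsk3b tile had 35, at 13.7 and 14.9 FPM. These 2 tiles were thus lost to the minimum and not to a lower level. The levels of the Ldlrad4 and Grb10 tiles were not read under this setting, so why they no longer counted is not shown.

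**Figure D5:**
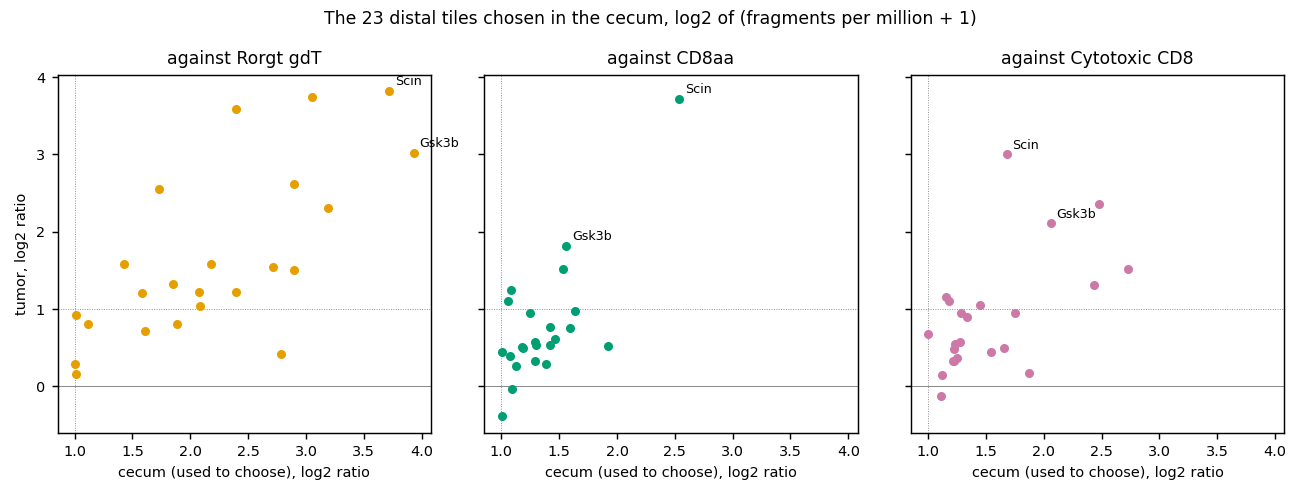
The 23 distal tiles chosen in the cecum, with the cecum log2 ratio (FPM plus 1) of Cytotoxic gdT over each compared label on the x axis, which the choice used, and the tumor ratio on the y axis. Most tumor values lie above 0 and below the cecum values, and the tile near Scin lies high in all panels.

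Between tumor and cecum, how many genes of the label were past 2-fold depended on the minimum and the weighting of nuclei. Of 14259 genes with at least 50 fragments over both libraries, 20 (0.14%) were at least 2-fold higher in the tumor and 8 (0.0561%) lower, and the median log2 ratio was -0.00. At a minimum of 20 fragments 83 were higher and 41 lower, as a mean over nuclei 98 and 84, and at a minimum of 200 none in either direction. With 5 kb on each side, the intervals of the marker genes held 0. Their tumor over cecum ratios were -0.19 (-0.45 to 0.06) for Trdc, 0.05 (-0.16 to 0.26) for Gzma and -0.01 (-0.29 to 0.27) for Gzmb. For Trdc this depended on the window, since with 500 bp on each side its level went from 29.9 to 18.4 FPM. Rorgt gdT also fell there, from 16.2 to 9.88, while CD8aa (3.71 and 3.76) and Cytotoxic CD8 (1.48 and 2.13) did not. No interval was computed for the narrower window. Of 18 cytotoxic effector genes none was past 2-fold, and Fasl, the death ligand, went from 56.2 to 72.0 FPM, a ratio of 0.36 (0.08 to 0.64). Xcl1 went the other way, from 47.9 to 34.6, -0.47 (-0.81 to -0.13), as did Serpinb9, a granzyme B inhibitor, with -0.34 (-0.55 to -0.13). The medians over the 15 other labels were -0.07 for Fasl, 0.10 for Xcl1 and -0.22 for Serpinb9. Of these labels, 6, 7 and 11 had the same sign as Cytotoxic gdT. The fall of Serpinb9 was thus not particular to the label, and CD8aa was at -0.51. Tbx21 went from 141 to 116 FPM, -0.27 (-0.46 to -0.08), where the median over the 15 other labels was -0.01. Kit went from 72.8 to 58.7, -0.31 (-0.58 to -0.04), where the other labels had a median of 0.44 and 4 of 15 also fell in level, Rorgt gdT the most at -0.84. All 4 tested of 10 epithelial markers were lower by any amount in the tumor, as were 7196 of the 14259 genes. Their median was -0.45 against -0.26 to 0.85 in the other labels. Vil1, the villin gene, was at -0.71 (-1.24 to -0.18), while the intervals of Cdh1, Epcam and Cldn7 held 0. Cdh1 was at -0.03 (-0.22 to 0.16). Markers under the minimum had mixed signs, as Krt8 with 1.17 (-0.03 to 2.52) and Krt18 with -0.26 (-1.48 to 0.99). The part of epithelial markers in the other differences was not tested. Of all other listed genes tested, 1 was past 2-fold, the natural killer receptor gene Klra7.

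The 5 genes highest in the tumor were Klra7, Sema5a, Ly86, Olfr1358 and Tmem117, and the 5 lowest Chn1, Dusp15, Igfbp5, Pknox2 and Zfp536. They rested on few fragments. Klra7, of the Ly49 family, had 7 cecum and 45 tumor fragments, 2.33 and 10.7 FPM, a ratio of 2.21 (1.05 to 3.60). With the pseudocount its ratio was 1.82, and those of the 15 other labels ran from -0.95 to 1.71. Chn1, a Rac regulator, had 65 cecum and 22 tumor fragments, a ratio of -2.04 (-2.81 to -1.33). With the pseudocount it was -1.86, while the other labels ran from -1.02 to 1.87. Dusp15, a phosphatase, had 41 cecum and 13 tumor fragments, -2.14 (-3.16 to -1.21).

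Single nuclei carried few fragments at the marker genes. At least 1 fragment at Gzma was found in 34.0% (30.0 to 38.3) of the cecum nuclei of the label and in 42.0% (38.0 to 46.1) of the tumor nuclei, which held more fragments per nucleus. At Trdc the shares were 27.7% and 28.4%, at Gzmb 24.3% and 29.1%, and at Cd8a 26.8% and 30.3%. Other genes had larger shares, as Ikzf2 with 60.8% and 69.6% and Itgae with 55.6% and 59.2%. These shares follow depth, so the nuclei were also split into 3 equal depth classes by their fragment total. Gzma was at 93.4, 95.7 and 111 FPM in the lowest, middle and highest class of the cecum nuclei and at 117, 89.3 and 117 in the tumor. Trdc was at 83.6, 71.4 and 79.5 in the cecum and at 60.1, 76.8 and 65.3 in the tumor. Gzmb was at 49.1, 53.9 and 66.9 in the cecum and at 36.7, 63.4 and 64.2 in the tumor, so its lowest level was in the class of fewest fragments in both libraries. The intervals of the classes were wide. At Gzma in the tumor they were 72.7 to 109 for the middle class and 105 to 130 for the highest, which overlapped by little.

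Markers of other cells were summed over each list. B cell markers summed to 150 FPM in the cecum and 155 in the tumor, within the range of the other labels (123 to 206 and 128 to 189). Myeloid markers summed to 126 and 140 (70.3 to 141 and 72.9 to 152), and markers of innate lymphoid and natural killer cells to 148 and 141 (95.6 to 376 and 122 to 424). Epithelial markers summed to 201 and 183, near the upper end of 86.8 to 204 and 109 to 208. That list included Cdh1 and Epcam, and Cdh1 encodes E-cadherin, the ligand of CD103. Cdh1 was at 135 and 132 FPM in Cytotoxic gdT at 121 and 123 in CD8aa and at 47.6 and 46.6 in Rorgt gdT. Against Rorgt gdT, Cdh1 was past 2-fold higher among 4 measured epithelial markers and Itgam, the CD11b gene, among 3 myeloid markers, with log2 ratios of 1.13 and 1.23 for Itgam. Il5 and Il1rl1, the IL-33 receptor gene, were past 2-fold lower among 5 innate lymphoid markers. No listed marker was at 0. The lowest of the epithelial list were Cldn3 with 0.665 FPM in the cecum and Krt19 with 0.239 in the tumor. The lowest myeloid marker was Lyz2, with 0.665 and 0.716 FPM, and the lowest of the innate lymphoid list were Ncr1 with 1.66 (cecum) and Areg with 0.477 (tumor). The part of such cells in the results was not tested.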

How the data were processed

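Nuclei of sorted T cells from AKP tumor and adjacent cecum were profiled by 10x multiome. The authors aligned the reads to mm10 with Cell Ranger ARC 2.0.0 (per the labels) and deposited ATAC fragments, each with its barcode and a count of read pairs. The deposited metadata give the authors' label of each nucleus, from clustering of its RNA after their filters. RNA files were not analysed here, the sources used here do not give how the authors treated doublets, and none were called.

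Each fragment on chromosomes 1 to 19, X and Y counted once, whatever its read pair count, by barcode and library, with no shift of its ends. Library totals were 66466111 fragments (cecum) and 96747563 (tumor), of which 66.2% and 64.3% were in labelled nuclei. Counts were summed per label over 21887 protein-coding genes (RefSeq) and 500-bp tiles, and divided by the label's total over 1000000. A call was a log2 ratio of at least 1 in size, with a pseudocount of 1 FPM, the same way in both libraries, at 50 or more fragments in each. Between labels this minimum summed both labels, so tumor counts also limited which genes were ranked by the cecum. Where a count was 0, ratios used a floor of 3 counts. The 95% intervals are exact (conditional for ratios, Poisson for levels, Clopper-Pearson for shares) and cover counting error only. The ratios and the 2-fold calls were tested on simulated counts, and the intervals were not part of that test. With 1 library per tissue no test was run.

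The label, the gene lists and the comparisons were chosen with earlier results of these data known. Named were the 13 genes always given, up to 5 genes per list and comparison with the largest smaller ratio, the 8 highest and lowest genes per comparison in the cecum, the 5 highest and lowest in tumor over cecum, and 8 tiles. Some of the genes these rules name, and 1 searched motif, are not reported here. Other genes that a count of 5 or fewer rests on, receptor segments and elements were named after their values were seen. Alternatives were the cells used, window, pseudocount, minimum, scaling, weight of cells and tile distance. Python 3.11.15, numpy 2.4.6, pandas 2.3.3 and scipy 1.17.1 were used.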

Additional observations from a re-analysis of the deposited data

Results flagged for a closer look

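Genes of the lists stand here if their ratio had an interval above 0 in one tissue and below 0 in the other. A gene named by its rank, Tmem117, is given with them. The difference between the libraries was not tested. S1pr1, the receptor for exit from tissue, had a log2 ratio to Rorgt gdT of 0.52 in the cecum and -0.61 in the tumor. Kit had a log2 ratio to CD8aa of 0.47 in the cecum and -0.29 in the tumor. Fasl had a log2 ratio to Cytotoxic CD8 of -0.40 in the cecum and 0.29 in the tumor. In S1pr1 the level of Rorgt gdT was 24.97 FPM in the cecum and 45.2 in the tumor, beside 35.9 and 29.6 in Cytotoxic gdT.

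A share of the fragments lay outside labelled nuclei and entered no comparison, namely 33.8% in the cecum and 35.7% in the tumor.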

How the results depend on the processing

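No paired analysis was possible because each tissue had 1 library and no test was run. Leaving out nuclei under 1000 fragments kept every count within 1.5 times its value. Without the CD4 and Treg labels in the denominator the label held 12.8% of the cecum and 11.01% of the tumor nuclei. With windows of 1 kb around gene ends the counts higher and lower were 84 and 124 against Rorgt gdT, 2 and 6 against CD8aa, 17 and 17 against Cytotoxic CD8, and 6 and 1 for tumor over cecum. In these windows 25, 3 and 8 list genes were past 2-fold against the compared labels. Fewer fragments are counted there, and the part of this in the lower counts was not tested. Plcg2 against Cytotoxic CD8 turned to -0.052 in the cecum. With a pseudocount of 5 FPM the counts were 9 and 9 against CD8aa, 19 lower against Cytotoxic CD8, and 2 and 2 for tumor over cecum. At a minimum of 20 fragments, 29 genes were higher than in CD8aa, and 83 and 41 were higher and lower in the tumor. At 200 fragments the counts were 106 and 129 against Rorgt gdT (27 list genes), 5 and 3 against CD8aa (4 list genes), 12 and 14 against Cytotoxic CD8, and 0 and 0 for tumor over cecum. Scaled by fragments near gene ends, 34 genes were higher in the tumor, and as a mean over nuclei 98 were higher and 84 lower. Distal tiles chosen in the cecum numbered 10 without nuclei above 3 times the median (0% past 2-fold in the tumor), 3 with 5 FPM (66.7%) and 4 at 120 fragments (50%). Of the values of single listed genes under the alternatives, 2779 moved by less than their counting interval and 174 by more, and 1 turned. The 2779 include 416 and 256 values at minimums of 20 and 200 fragments. These could not move, since a minimum only decides which genes are tested. With windows of 1 kb around gene ends, 97 moved by more than their interval and 154 by less.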
